A study of Mactra quadrangularis with 9 samples.

Results

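Gill of the marine surf clam *Mactra quadrangularis*, named *Mactra veneriformis* in the series text, was compared between severe hypoxia (2 mg/L dissolved oxygen) and moderate hypoxia (4 mg/L) by poly(A) RNA sequencing. The comparison used 6 of the study's 9 libraries, 3 at each oxygen level, and the 15397 of 24722 genes whose mean FPKM over all 9 libraries was at least 1. FPKM is a read count scaled for gene length and library size. Both hypoxic groups were held for 24 h within 0.2 mg/L of their target by bubbling nitrogen under plastic film, at 20 °C and a salinity of 27, without food or water change, with 40 clams in each parallel. The remaining 3 libraries came from aerated clams at 7.5 mg/L. They entered the fit to help estimate the spread, and their levels are given beside some results. The sources used here give neither strain, age nor the number of clams in a library. Since no label says that each library is a separate clam, a p-value here measures spread among libraries that may be purely technical.

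Bivalves tolerate low oxygen by lowering energy use and by fermenting glycogen and aspartate to opines and succinate, a route in which phosphoenolpyruvate carboxykinase (PEPCK) diverts carbon away from pyruvate. Hypoxia-inducible factor 1 (HIF-1) is the conserved oxygen-regulated transcription factor of animal cells, while the unfolded protein response and heat shock proteins deal with proteins that fail to fold. The bivalve gill is a ciliated epithelium over blood spaces with muscle and connective tissue, and it serves respiration, feeding, ion exchange and defence.

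Gill at 2 mg/L differed from gill at 4 mg/L in most genes measured, about equally often upward and downward. At an adjusted p under 0.05, 9813 of 15397 genes were called (63.7%), 4871 higher (31.6%) and 4942 lower (32.1%) at 2 mg/L. At least 2-fold differences were called for 2145 genes higher (13.9%) and 2014 lower (13.1%), and at least 10-fold differences for 320 higher and 534 lower. In 10463 genes (68.0%) the 3 libraries at one oxygen level all lay above the 3 at the other. The median log2 change over all genes was -0.02 and the median size of a change, whatever its sign, was 0.52. When total counts replaced TMM scaling, which corrects for a few very abundant genes, genes shifted by a median of -0.13 and the calls split into 4040 higher and 6002 lower. Every comparison of a list below is to be read against these shares. In a tissue sample, fewer cells of a type and less RNA per cell cannot be told apart.

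Library totals ran from 26994566 to 32246147 counts. Across genes, log2 levels correlated at 0.972 to 0.977 between libraries of one group and at 0.750 to 0.761 between the 2 hypoxic groups, and no library stood apart. With the 7.5 mg/L libraries the correlation was 0.766 to 0.777 for 4 mg/L and 0.839 to 0.843 for 2 mg/L. By this measure the 2 mg/L libraries lay nearer to 7.5 mg/L than the 4 mg/L libraries did. A call was made for 52.9% of genes in the lowest quartile by level and for 78.7% in the highest. Called differences of at least 2-fold ran the other way, at 41.8% of the lowest quartile and 17.4% of the highest. The 86 ciliary markers that passed the filter, of 90 in the table, had sums of 8101 to 8233 CPM at 4 mg/L and 8574 to 8623 CPM at 2 mg/L. CPM is the count after TMM scaling to a common library size.

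**Figure D1:**
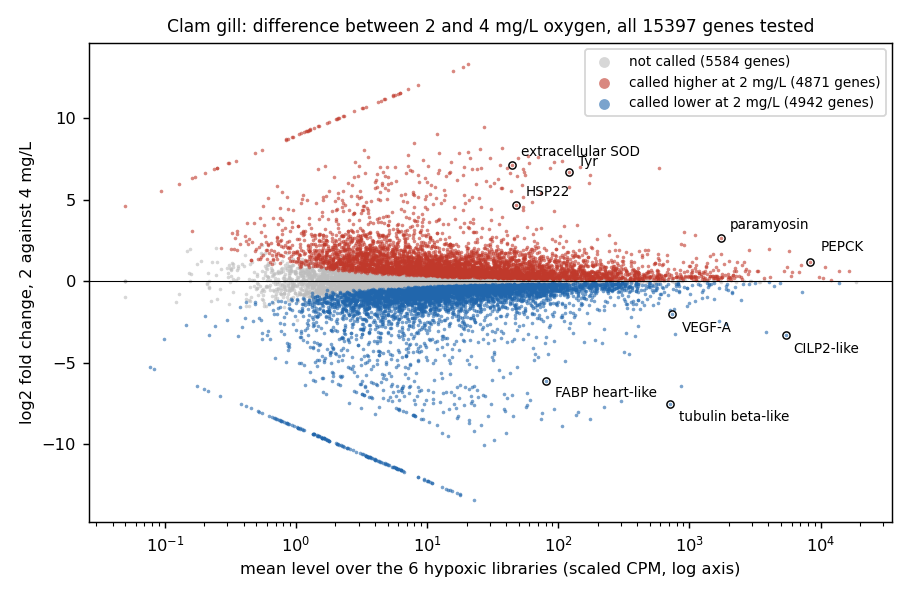
Each point is 1 of the 15397 genes tested, placed by its mean level over the 6 hypoxic libraries (scaled CPM, log axis) and its log2 fold change at 2 against 4 mg/L. Red points were called higher (4871) and blue points lower (4942), and the slanted lines at the edges are genes with 0 counts in 1 group, whose fitted fold is no estimate of size.

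PEPCK and an opine dehydrogenase, enzymes of anaerobic metabolism, and the alternative oxidase had higher transcript levels at 2 than at 4 mg/L. Transcripts for pyruvate carboxylase and malate dehydrogenase were lower instead. A cytosolic PEPCK (Mve06G010350, chromosome 6, 34103329 to 34112237), which interconverts oxaloacetate and phosphoenolpyruvate, stood at 4938, 4884 and 5182 CPM at 4 mg/L and 11238, 11814 and 11456 CPM at 2 mg/L. The groups did not overlap, and the gene was 2.30-fold higher at 2 mg/L (log2 change 1.20 ± 0.03 SE, adjusted p = 6.63e-15), against 268 ± 11.4 CPM at 7.5 mg/L. Both other PEPCK genes lie beside it and differed less, Mve06G010330 being 1.26-fold higher and Mve06G010340 1.15-fold higher, a call lost with total counts and with limma on FPKM. The alternative oxidase (Mve07G002200), a mitochondrial enzyme that reduces oxygen without pumping protons, stood at 125, 108 and 124 CPM at 4 mg/L and 231, 240.1 and 247 CPM at 2 mg/L. The groups did not overlap, and the difference was 2.01-fold (adjusted p = 1.27e-10). Octopine dehydrogenase (Mve03G010040), which joins pyruvate to arginine and regenerates NAD, stood at 26.4, 25.9 and 22.8 CPM at 4 mg/L and 52.4, 52.6 and 62.8 CPM at 2 mg/L. It was 2.23-fold higher (adjusted p = 7.05e-09), again without overlap.

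Pyruvate carboxylase (Mve02G012180), which makes oxaloacetate from pyruvate, went the other way at 220.2, 229 and 226 CPM at 4 mg/L and 125, 125 and 109.8 CPM at 2 mg/L. It was 1.88-fold lower (adjusted p = 8.80e-11), and a mitochondrial malate dehydrogenase (Mve11G006600) was 1.54-fold lower. Cytoplasmic aspartate aminotransferase (Mve13G001850), which feeds aspartate carbon into oxaloacetate, was 1.84-fold lower. A mitochondrial D-lactate dehydrogenase (Mve06G007880) was 1.61-fold lower. Of 19 genes in this anaerobic and gluconeogenic list 9 were higher and 8 lower, and with total counts 6 were higher and 9 lower. The list's median log2 change was 0.02, close to that of all genes.

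Transcript levels of glycolytic and citric acid cycle genes leaned lower at 2 mg/L. In a list of 4 genes drawn up for oxygen sensing, HIF-1alpha was lower and 2 were not called. The remaining gene, also lower, was HYOU1, which is an ER chaperone described below and not an oxygen sensor. Of 13 glycolytic genes 3 were higher and 7 lower, with a median log2 change of -0.22. Phosphofructokinase (Mve18G003940), the committing step, stood at 38.9, 40.3 and 39.4 CPM at 4 mg/L and 27.5, 23 and 22.5 CPM at 2 mg/L. It was 1.62-fold lower (adjusted p = 4.44e-06) with no overlap, while an aldolase (Mve11G002450) was 1.34-fold lower, glucose-6-phosphate isomerase (Mve06G013080) 1.36-fold lower and triosephosphate isomerase (Mve04G013470) 1.31-fold lower. Hexokinases, which trap glucose in the cell, diverged: hexokinase type 2 (Mve13G001100) was 1.2-fold lower and hexokinase-1-like (Mve13G007880) 1.53-fold higher. Glyceraldehyde-3-phosphate dehydrogenase (Mve04G009740) was 1.23-fold higher.

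In the citric acid cycle 4 of 19 genes were higher and 9 lower (median -0.12), and none was higher with total counts or without the third 2 mg/L library. The lower ones were led by a subunit of succinate-CoA ligase (Mve08G003890, 2.46-fold lower) and a 2-oxoglutarate dehydrogenase component (Mve02G009690, 2.03-fold lower). Of 42 respiratory chain and ATP synthase genes 11 were higher and 7 lower, none by 2-fold, and with total counts 5 were higher and 21 lower. HIF-1alpha (Mve02G016380), the oxygen-regulated HIF subunit, stood at 262, 247 and 250.4 CPM at 4 mg/L and 209.8, 191 and 188 CPM at 2 mg/L. This gene was 1.29-fold lower (adjusted p = 4.83e-06) without overlap. The EGLN1-like prolyl hydroxylase (Mve02G014470), of the family that marks HIF-alpha for degradation, stood at 65.2, 62.1 and 66.8 CPM at 4 mg/L and 76.3, 67.6 and 63.9 CPM at 2 mg/L and was not called (adjusted p = 0.246). The HIF partner ARNT (Mve10G004750) at 52.7 ± 3.15 CPM at 4 mg/L and 50.7 ± 0.357 CPM at 2 mg/L (adjusted p = 0.566) and the mitophagy receptor BNIP3 (Mve13G003520) at 13 ± 1.44 CPM at 4 mg/L and 10.7 ± 1.77 CPM at 2 mg/L (adjusted p = 0.209) were not called either, and their groups overlapped.

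**Figure D2:**
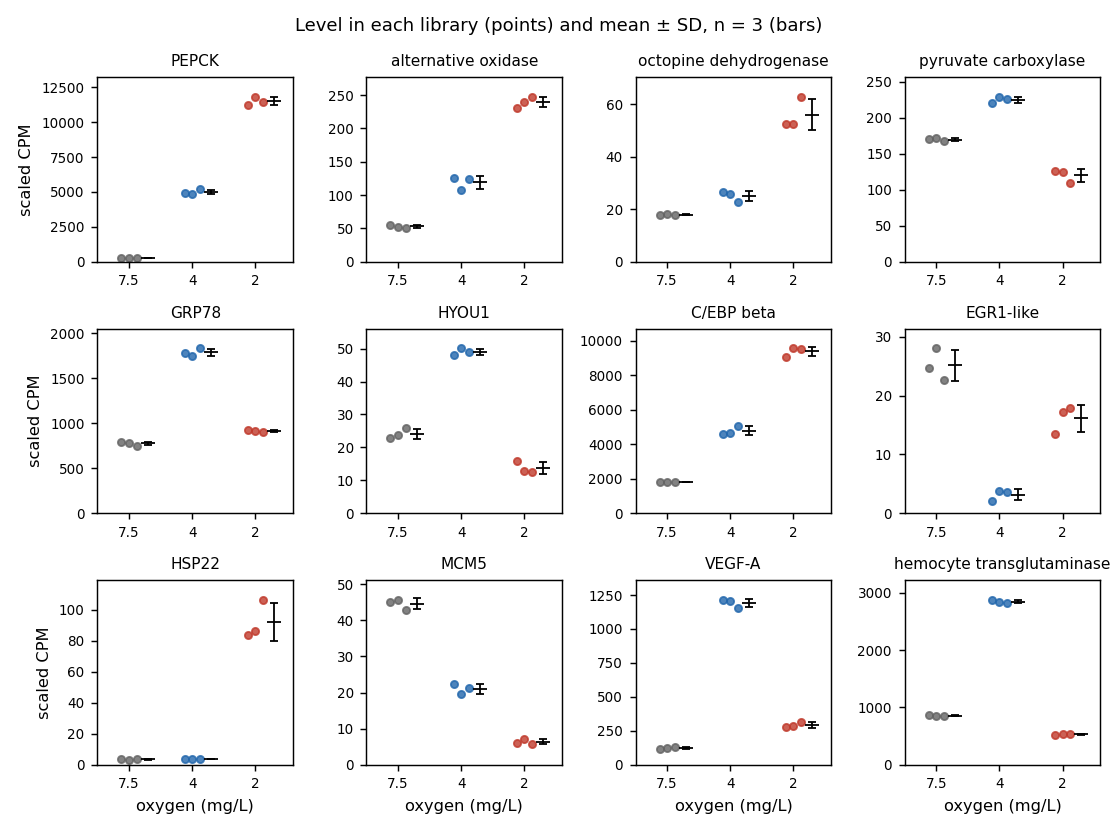
Scaled CPM of 12 genes in each library (points) with the mean ± SD (n = 3) at 7.5, 4 and 2 mg/L oxygen, each panel starting at 0. PEPCK, alternative oxidase, octopine dehydrogenase, C/EBP beta, EGR1-like and HSP22 lay higher at 2 than at 4 mg/L, and the other 6 genes lay lower, with no overlap between the hypoxic groups in any panel.

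Genes for protein folding in the endoplasmic reticulum (ER) and for the sugar modification that goes with it mostly had lower transcript levels at 2 mg/L. Of 23 ER folding and unfolded-protein genes 17 were lower and 4 higher, with a median log2 change of -0.61 against -0.02 over all genes. Of the 17, 9 were lower by at least 2-fold. Against 7.5 mg/L, the list's median was 0.55 at 4 mg/L (19 higher, 2 lower) and -0.007 at 2 mg/L (9 higher, 10 lower). Those comparisons share the hypoxic libraries with this one. GRP78 (Mve14G007880), the main ER chaperone of the HSP70 class, stood at 1784, 1748 and 1829 CPM at 4 mg/L and 926, 911 and 903 CPM at 2 mg/L. It was 1.96-fold lower (log2 change -0.97 ± 0.03 SE, adjusted p = 6.77e-14) and came to 774 ± 21.3 CPM at 7.5 mg/L. Hypoxia up-regulated protein 1 (HYOU1, Mve07G000120), the nucleotide exchange factor of GRP78, stood at 48.2, 50.1 and 48.9 CPM at 4 mg/L and 16.0, 12.8 and 12.5 CPM at 2 mg/L. The groups were again apart and the gene was 3.56-fold lower (adjusted p = 6.51e-11), below its level of 24.1 ± 1.49 CPM at 7.5 mg/L. Calnexin (Mve09G011050) and calreticulin (Mve03G001600), which hold glycoproteins until they fold, were 2.87-fold lower and 1.46-fold lower. Protein disulfide-isomerase A4 (Mve12G009000), which forms disulfide bonds, was 2.72-fold lower. Members called higher were an XBP1-like transcription factor (Mve11G010540, 1.56-fold higher), a regulator of this response, an initiation factor 2-alpha kinase (Mve13G003910, 1.30-fold higher) and the translocon subunit Sec61 alpha (Mve08G005270, 1.18-fold higher) among the 4. A second gene described as XBP1 (Mve11G007020) was 1.53-fold lower.

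The KEGG pathway of N-glycan biosynthesis held 23 lower and 6 higher genes of 40 (median -0.64), and glycosylphosphatidylinositol (GPI) anchor biosynthesis 16 lower and 1 higher of 27 (median -0.80). These were the fourth and the second lowest medians among 123 pathways. The genes named next were chosen after their values were seen. All 4 genes described as oligosaccharyltransferase subunits, which move the finished glycan onto a protein, were lower, by a log2 change of -0.23 to -0.96. The most changed of them (Mve08G004360) stood at 329, 312 and 335 CPM at 4 mg/L and 168, 171 and 162 CPM at 2 mg/L, which was 1.95-fold lower (adjusted p = 2.55e-12). Neutral alpha-glucosidase AB (Mve02G015970), which trims the new glycan, was 2.50-fold lower, and the mannosyltransferase ALG9 (Mve15G009810) 2.59-fold lower. In the GPI pathway, GPI anchor attachment protein 1 (Mve06G015310), part of the enzyme that attaches the anchor, stood at 11.5, 14.2 and 11.3 CPM at 4 mg/L and 4.2, 3.01 and 3.32 CPM at 2 mg/L. It was 3.51-fold lower (adjusted p = 1.34e-07) without overlap. The partner subunit PIG-S (Mve13G009910) was 1.94-fold lower.

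Stress transcription factors lay higher at 2 mg/L. Of 16 genes 10 were higher and 3 lower, with a median log2 change of 0.61. C/EBP beta (Mve06G004740), a bZIP factor of stress and inflammation, stood at 4598, 4661 and 5075 CPM at 4 mg/L and 9064, 9541 and 9530.0 CPM at 2 mg/L. The difference was 1.96-fold (log2 change 0.97 ± 0.03 SE, adjusted p = 1.64e-13) without overlap. ATF3 (Mve02G003040), a bZIP factor induced by many stresses, stood at 184, 188 and 185 CPM at 4 mg/L and 337, 356 and 356 CPM at 2 mg/L and was 1.88-fold higher. Fos-related antigen 1 (Mve02G005320), a subunit of AP-1, was 2.09-fold higher and a factor described as nuclear factor interleukin-3-regulated (Mve08G010210) 2.40-fold higher. An early growth response 1-like gene (EGR1, Mve13G000680), an immediate early factor, stood at 2.13, 3.75 and 3.56 CPM at 4 mg/L and 13.5, 17.1 and 17.8 CPM at 2 mg/L. It was 5.13-fold higher (adjusted p = 7.81e-09), and 25.1 ± 2.70 CPM at 7.5 mg/L put the 4 mg/L libraries lowest of the 3 groups. Krueppel-like factor 3 (Mve09G002050) was 1.64-fold lower.

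In the MAP kinase list 16 of 40 genes were higher and 5 lower (median 0.29). Dual specificity phosphatase 1 (Mve13G000050), which switches MAP kinases off, stood at 23.4, 25.5 and 23.9 CPM at 4 mg/L and 54.2, 53.0 and 58.8 CPM at 2 mg/L, 2.28-fold higher with no overlap. Its relative dual specificity phosphatase 12 (Mve14G000280) was 4.63-fold higher, MAP kinase 7 (Mve11G011220) 2.09-fold higher and the pseudokinase tribbles 2 (Mve18G004270) 1.56-fold higher. MAP kinase 4-like (Mve10G009340) was 3.77-fold lower.

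Over the list of 74 cytosolic chaperones 24 genes were higher and 27 lower. Heat shock protein 22 (Mve16G010930), a small heat shock protein that binds unfolding proteins without ATP, stood at 3.68, 3.41 and 3.75 CPM at 4 mg/L and 83.9, 86.3 and 106 CPM at 2 mg/L. It came to 3.50 ± 0.215 CPM at 7.5 mg/L, and the hypoxic groups were 25.5-fold apart (adjusted p = 2.75e-15). A partial HSP22 gene (Mve08G002290) stood at 0.68, 0.496 and 0 CPM at 4 mg/L and 13.5, 17.6 and 15.6 CPM at 2 mg/L, a 39.3-fold difference (adjusted p = 1.05e-06). Of 10 genes described only as heat shock protein 70, the ATP-driven folding chaperone, 9 were higher and none lower, with a median log2 change of 1.89. Their summed level differed far less, at 3070 to 3144 CPM at 4 mg/L and 3635 to 3745 CPM at 2 mg/L, beside 3672 to 3744 CPM at 7.5 mg/L. One copy (Mve02G010770) stood at 15.0, 9.64 and 12.5 CPM at 4 mg/L and 51.1, 57.8 and 59.0 CPM at 2 mg/L and was 4.51-fold higher (adjusted p = 5.24e-10). The copies Mve07G002840 and Mve07G002850 differed least among the called ones, being 1.18-fold higher and 1.14-fold higher, and the second lost its call with total counts and with limma. Copies of a family may share reads.

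Of the heat shock protein 90 genes, Mve01G001290 was 1.19-fold lower, and Mve02G001700 at 1303 ± 14.7 CPM at 4 mg/L and 1286 ± 21.4 CPM at 2 mg/L was not called (adjusted p = 0.588) but was called lower with total counts and with limma. The HSP90 ATPase activator (Mve02G013660) was 2.58-fold lower, a chaperonin subunit (TCP-1 theta, Mve05G002740) 1.31-fold lower and sacsin (Mve04G004930) 4.86-fold lower. In the expanded HSP70 12A and 12B family, relatives of HSP70 of poorly known function, 47 of 71 genes were higher and 15 lower (median 0.53). On chromosome 9 27 of 35 were higher and 6 lower. Mve09G000180 stood at 0, 0 and 0.936 CPM at 4 mg/L and 30.9, 28.7 and 23.1 CPM at 2 mg/L, which was 87.7-fold higher (adjusted p = 8.93e-09). Its neighbour Mve09G000170 stood at 2.1, 3.19 and 4.31 CPM at 4 mg/L and 40.6, 37.7 and 39.1 CPM at 2 mg/L, 12.2-fold higher, and neither gene's groups overlapped. Mve15G008890 on chromosome 15 was 5.22-fold lower.

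**Figure D3:**
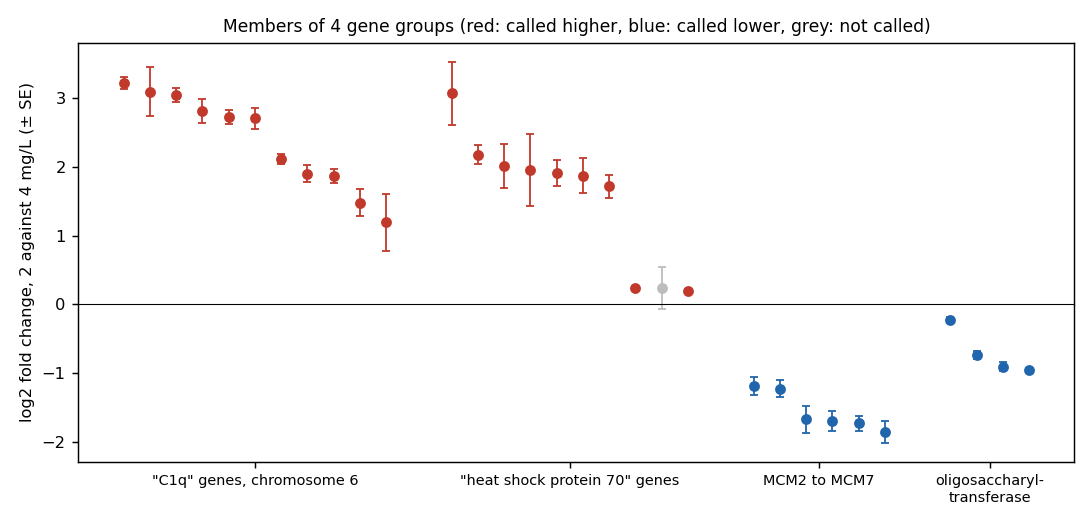
Log2 fold change at 2 against 4 mg/L, with its SE, for each member of 4 gene groups, ordered within a group by size. All 11 C1q genes of chromosome 6 and 9 of 10 heat shock protein 70 genes were called higher, and all 6 MCM2 to MCM7 genes and all 4 oligosaccharyltransferase genes were called lower.

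Ribosomal protein genes were slightly higher at 2 mg/L, while translation factors and proteasome subunits leaned lower. Of 61 cytosolic ribosomal protein genes 48 were higher and none lower at 2 mg/L, by small amounts: the median log2 change was 0.24 and none reached 2-fold. With total counts 30 were higher and 2 lower. Ribosomal protein L3 (Mve01G020490) stood at 1975, 1938 and 2162 CPM at 4 mg/L and 2507, 2570.4 and 2497 CPM at 2 mg/L, and L14 (Mve06G007890) was 1.44-fold higher (adjusted p = 4.31e-08). Beside this the list's median was -0.38 at 4 against 7.5 mg/L, a comparison that shares the 4 mg/L libraries. Translation factors leaned lower, 33 of 57 against 10 higher (median -0.22). The cap-binding protein eIF4E (Mve01G011660), which recruits mRNA to the ribosome, stood at 60.6, 49.3 and 52.6 CPM at 4 mg/L and 28.1, 25 and 29.7 CPM at 2 mg/L. It was 1.96-fold lower (adjusted p = 5.52e-08) without overlap, the scaffold eIF4G (Mve04G014200) 1.40-fold lower and the alpha subunit of the exchange factor eIF2B (Mve11G003540) 2.22-fold lower. Elongation factor 2 (Mve10G006750) was 1.21-fold higher and initiation factor 5 (Mve02G009240) 1.59-fold higher.

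Of 61 proteasome and ubiquitin genes 32 were lower and 6 higher (median -0.27). Of 34 genes named as subunits of the 20S core or 26S particle, 25 were lower and 1 higher. The lid subunit 11 (Mve12G009910) stood at 129, 148 and 136 CPM at 4 mg/L and 49.4, 57.9 and 52.1 CPM at 2 mg/L, and it was 2.59-fold lower (adjusted p = 1.23e-11) with no overlap. Core subunit alpha 2 (Mve07G013970) was 1.72-fold lower. Ubiquitin itself went the other way: a polyubiquitin gene (Mve09G011060), the heat- and stress-responsive source of free ubiquitin in animals, stood at 7545, 7539 and 7561 CPM at 4 mg/L and 13779, 14169 and 14110.0 CPM at 2 mg/L. The difference was 1.86-fold (adjusted p = 2.08e-15), and another (Mve08G001270) was 1.14-fold higher, a call lost with limma. The proteasome inhibitor PI31 (Mve18G000930) was 2.17-fold higher.

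DNA replication genes were lower at 2 mg/L. In the replication and cell cycle list 33 of 73 genes were lower and 8 higher (median -0.38), 18 of the 33 by at least 2-fold. KEGG's DNA replication pathway had the lowest median of the 123 pathways, with 25 of 36 genes lower and 3 higher (median -0.82). All 6 subunits of the MCM2 to MCM7 helicase, which unwinds DNA at the fork, were lower with no overlap, by log2 changes of -1.18 to -1.86; the complex was singled out after its values were seen. MCM5 (Mve02G013640) stood at 22.4, 19.6 and 21.3 CPM at 4 mg/L and 6.04, 7.19 and 5.80 CPM at 2 mg/L. That was 3.32-fold lower (log2 change -1.73 ± 0.11 SE, adjusted p = 3.95e-10), against 44.6 ± 1.53 CPM at 7.5 mg/L. The sliding clamp PCNA (Mve01G002720) stood at 29.9, 32.4 and 28.9 CPM at 4 mg/L and 14.6, 13 and 14.6 CPM at 2 mg/L and was 2.16-fold lower (adjusted p = 8.60e-09). The large subunit of ribonucleotide reductase (Mve09G000540), which makes DNA precursors, was 4.06-fold lower, and an inner centromere protein-like gene (Mve04G003740) 33.0-fold lower. Exceptions were a DNA replication helicase/nuclease (Mve05G014960), at 3.34, 2.54 and 3.03 CPM at 4 mg/L and 18.1, 20.0 and 15.6 CPM at 2 mg/L, and cyclin A (Mve09G010460), 1.70-fold higher.

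**Figure D4:**
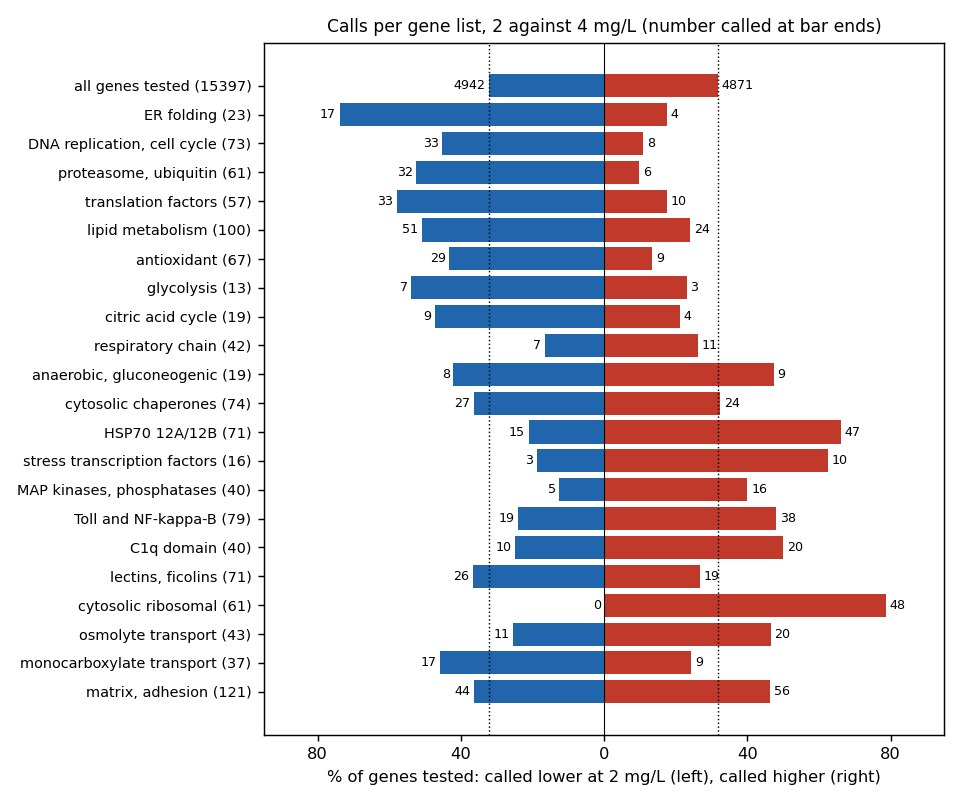
Percentage of the genes tested in each list that were called lower (blue, left) or higher (red, right) at 2 mg/L, with the number called at each bar end and the number tested in brackets. Dotted lines mark the shares over all 15397 genes, 32.1% lower and 31.6% higher. With total counts the balance turned toward lower calls for the anaerobic and gluconeogenic list and the respiratory chain.

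Lipid genes were lower in 51 of 100 cases and higher in 24 (median -0.41). A heart-type fatty acid-binding protein (Mve11G004150), an intracellular carrier, stood at 163, 164 and 147 CPM at 4 mg/L and 2.59, 2.04 and 2.08 CPM at 2 mg/L. It was 70.2-fold lower (adjusted p = 4.40e-17), with 6.03 ± 0.714 CPM at 7.5 mg/L. A cholesterol 7-desaturase (Mve14G000450) was 4.21-fold lower and the sphingolipid desaturase DES1 (Mve13G009620) 4.73-fold lower. The lipid droplet coat protein perilipin-2 (Mve10G011370) stood at 306, 314 and 323 CPM at 4 mg/L and 469, 464 and 487 CPM at 2 mg/L, 1.51-fold higher with no overlap. KEGG's biosynthesis of unsaturated fatty acids had 15 lower and 3 higher genes of 22 (median -0.64).

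Antioxidant genes were lower in 29 of 67 cases and higher in 9 (median -0.27). An extracellular copper/zinc superoxide dismutase (Mve05G004020), which converts superoxide to peroxide, was close to silent at 4 mg/L, at 0.309, 0 and 1.56 CPM at 4 mg/L and 87.2, 92.8 and 84.5 CPM at 2 mg/L. It was 141-fold higher (adjusted p = 4.41e-11). A glutathione S-transferase of pi class (Mve03G018750), a detoxifying enzyme, was the reverse, at 14.3, 13.8 and 11.3 CPM at 4 mg/L and 0.785, 0.898 and 0.48 CPM at 2 mg/L, or 18.0-fold lower. Thioredoxin-like Mve19G005780 was 1.89-fold lower and glutaredoxin 1 (Mve10G008410) 1.54-fold lower, while thioredoxin-like protein 1 (Mve17G006140) was 2.58-fold higher and ferritin 2 (Mve08G009170), an iron store, 1.24-fold higher. Catalase (Mve05G008150), which removes peroxide, stood at 124, 116 and 121 CPM at 4 mg/L and 123, 117 and 120.1 CPM at 2 mg/L and was not called (adjusted p = 0.987), though it was called lower with total counts and with limma.

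The C1q genes that were most consistently higher at 2 than at 4 mg/L lie together on a chromosome. Among 40 genes with a C1q domain, a secreted recognition fold much expanded in bivalves, 20 were higher and 10 lower (median 0.41). The 12 genes described only as C1q had the highest median of 61 shared descriptions (2.41). Their sums were 524 to 559 CPM at 7.5 mg/L, 173 to 188 CPM at 4 mg/L and 472 to 510 CPM at 2 mg/L. Against 7.5 mg/L their median log2 change was -2.345 at 4 mg/L and 0.03 at 2 mg/L. Of the 12 genes, 11 lie on chromosome 6 between 4984092 and 6690140 in the deposited coordinates. All 11 were higher at 2 than at 4 mg/L with no overlap, by log2 changes of 1.19 to 3.22. Mve06G001870 stood at 37.7, 44.7 and 40.6 CPM at 4 mg/L and 165, 172 and 196 CPM at 2 mg/L, which was 4.33-fold higher (adjusted p = 1.15e-13), against 258 ± 10.4 CPM at 7.5 mg/L. Mve06G002060 stood at 5.37, 6.72 and 5.24 CPM at 4 mg/L and 56.6, 51.7 and 53.0 CPM at 2 mg/L, 9.30-fold higher. The 12th gene (Mve10G001380, chromosome 10) was 1.67-fold lower. On chromosome 19, C1q-like protein 4 genes Mve19G001420 and Mve19G001410 went the other way, the first at 29.5, 30.7 and 26.6 CPM at 4 mg/L and 0, 0 and 0.12 CPM at 2 mg/L. The second stood at 15.6, 13.1 and 11.1 CPM at 4 mg/L and 0.0682, 1.00 and 0.6 CPM at 2 mg/L, 23.8-fold lower. Neighbouring copies may share reads.

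In the Toll and NF-kappa-B list, the pathway that senses microbes, 38 of 79 genes were higher and 19 lower (median 0.27). KEGG's Toll-like receptor pathway had the highest median of the 123 pathways, with 13 of 16 genes higher and none lower (median 0.38). A Toll gene (Mve11G009450) stood at 1.61, 1.36 and 1.15 CPM at 4 mg/L and 51.1, 50.6 and 43.2 CPM at 2 mg/L. It was 35-fold higher (adjusted p = 7.28e-15), and Toll-like receptor W (Mve09G013340) was 2.2-fold higher. The adaptor MyD88 (Mve07G004310), through which Toll receptors signal and which was picked after its values were seen, stood at 189, 177 and 181 CPM at 4 mg/L and 255, 242 and 251 CPM at 2 mg/L. That 1.37-fold difference was called (adjusted p = 5.28e-08), and a second MyD88 gene (Mve07G004540, adjusted p = 0.597) was not. Toll-like receptor 13 (Mve05G012780) and an NLR family gene (Mve17G000010) were 2.23-fold lower and 12.1-fold lower. An interleukin 17-like cytokine (Mve11G002500) stood at 72.0, 78.1 and 75.9 CPM at 4 mg/L and 145, 162 and 152 CPM at 2 mg/L, 2.03-fold higher (adjusted p = 5.68e-09).

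Among GIMAP, IFI44 and interferon-related genes, linked to immune cells and virus response in vertebrates, 19 of 41 were higher and 10 lower (median 0.27). The GIMAP gene Mve04G003700 stood at 0, 0 and 0.187 CPM at 4 mg/L and 13.7, 12.5 and 16.3 CPM at 2 mg/L, while IFI44-like Mve14G007110 stood at 53.4, 58.8 and 59.9 CPM at 4 mg/L and 307, 338 and 372 CPM at 2 mg/L. They were 214-fold higher and 5.92-fold higher, but IFI44-like Mve11G003420 was 193-fold lower, from 44.9, 45.1 and 45.3 CPM at 4 mg/L and 0, 0 and 0.759 CPM at 2 mg/L. Of 10 genes described as GIMAP 4 were higher and 4 lower (median 0.03). The lower Mve04G003730, named after its values were seen, stood at 4.42, 3.69 and 2.72 CPM at 4 mg/L and 0.171, 0.138 and 0 CPM at 2 mg/L and lies near Mve04G003700. Of lectins and ficolins, sugar-binding recognition proteins, 26 of 71 were lower and 19 higher (median -0.39). A ficolin-2-like gene (Mve03G002320) stood at 82.2, 74.2 and 79.7 CPM at 4 mg/L and 0.341, 0.207 and 0.4 CPM at 2 mg/L, or 249-fold lower. A tandem repeat galectin (Mve02G017890) was 2.88-fold lower, and a C-type lectin (Mve07G010360) was 12-fold higher. The antimicrobial peptide mytimacin 5 (Mve12G005300), of a mollusc family, stood at 1.05, 0.589 and 0.999 CPM at 4 mg/L and 22.9, 26.1 and 24.9 CPM at 2 mg/L and was 27.9-fold higher (adjusted p = 3.19e-11).

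Cell death and autophagy genes were mixed as lists. In the apoptosis list 23 of 68 genes were higher and 16 lower, and with total counts 18 were higher and 21 lower. Inhibitor of apoptosis 1 (Mve05G007000), of the family that blocks caspases, stood at 397, 411 and 421 CPM at 4 mg/L and 926, 949 and 975 CPM at 2 mg/L. It was 2.32-fold higher (adjusted p = 1.56e-14) and a putative inhibitor of apoptosis (Mve05G013220) 2.38-fold higher, whereas a death domain-containing protein 1 gene (Mve15G000960) was 2.50-fold lower. In the autophagy list 10 of 24 were higher and 6 lower, or 9 and 9 with total counts. All 4 genes described as sequestosome-1, the receptor that brings ubiquitin-marked cargo to autophagosomes, were higher. Mve09G009330 stood at 62.5, 61.9 and 64.4 CPM at 4 mg/L and 262, 254 and 242 CPM at 2 mg/L, 4.02-fold higher (adjusted p = 1.96e-15), and its neighbour Mve09G009340 was 3.18-fold higher.

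Muscle markers were higher at 2 mg/L, while the lists for other cell types varied in direction. Of 41 muscle markers 28 were higher and 6 lower (median 1.07), 21 of the 28 by at least 2-fold, and their summed level was 7876 to 8516 CPM at 4 mg/L and 21763 to 26683 CPM at 2 mg/L, beside 8233 to 8495 CPM at 7.5 mg/L. Without adductor actin, the most abundant member, the sums were 5515 to 5734 and 13819 to 16681 CPM. Striated myosin heavy chain (Mve01G015220) stood at 197, 190.2 and 216 CPM at 4 mg/L and 1590.1, 1413 and 1840.4 CPM at 2 mg/L. It was 8.04-fold higher (adjusted p = 3.88e-15), against 376 ± 18.7 CPM at 7.5 mg/L. Paramyosin (Mve09G008510), which forms the core of molluscan thick filaments, stood at 462, 450.2 and 543 CPM at 4 mg/L and 2889, 2623 and 3487 CPM at 2 mg/L, and tropomyosin (Mve10G006090), which controls actin, at 823, 830.3 and 851 CPM at 4 mg/L and 2474, 2404 and 2971 CPM at 2 mg/L. They were 6.19-fold higher and 3.13-fold higher, with the third library at 2 mg/L the highest for the 3 genes. Members that ran lower included a myosin-2 essential light chain (Mve07G004970, 2.07-fold lower) and a troponin C (Mve09G000950, 8.81-fold lower). One myosin heavy chain (Mve09G006830), named like the other zero-count markers below after its values were seen, had 0 counts at 2 mg/L. No marker of any list had 0 counts at 4 mg/L. Over all genes tested, 154 called genes had 0 counts at 2 mg/L and 58 at 4 mg/L, so this lean was not particular to markers. The part of muscle tissue in the other differences was not tested.

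Shell and mantle markers were higher in 7 of 14 cases and lower in 3 (median 0.47), with sums of 130.1 to 138 CPM at 4 mg/L and 262 to 285 CPM at 2 mg/L. A tyrosinase (Mve11G003950), an oxidase of shell pigment and periostracum, stood at 0, 0.124 and 0 CPM at 4 mg/L and 24.5, 23.6 and 23.1 CPM at 2 mg/L. Insoluble matrix shell protein 1 (Mve15G005280) stood at 0.371, 0.186 and 0.312 CPM at 4 mg/L and 26.4, 33.4 and 27.5 CPM at 2 mg/L, and a gene described as Tyr (Mve06G013920), outside the list, at 2.04, 1.21 and 3.59 CPM at 4 mg/L and 233, 263 and 223 CPM at 2 mg/L. These were near 0 in the 4 mg/L libraries and were 522-fold higher, 99.1-fold higher and 105-fold higher. The tyrosinase fold rests on very few counts at 4 mg/L and is no precise size. A chitin synthase (Mve06G008130) was 1.73-fold lower, and a perlucin (Mve15G005330) had 0 counts at 2 mg/L. Neuronal markers were higher in 8 of 15 cases and lower in 1, a call lost in the 6 hypoxic libraries alone (median 0.63, sums of 174.7 to 184.6 and 267 to 276 CPM). Mucus markers were higher in 7 of 15 and lower in 5 (median 0.39). Their sums were 2608 to 2671 and 3017 to 3145 CPM, but without the most abundant member they were 748 to 773 CPM at 4 mg/L and 644 to 720.4 CPM at 2 mg/L. Ciliary markers were higher in 31 of 86 and lower in 15 (median 0.08), or 21 and 27 with total counts.

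Digestive gland markers were lower in 16 of 26 cases and higher in 4 (median -1.09), although their summed level changed little, from 2770.1 to 2832 CPM at 4 mg/L to 2411 to 2458 CPM at 2 mg/L, and without the most abundant member from 701 to 730.3 CPM to 726 to 731 CPM. Cathepsin L1-like Mve17G004030 stood at 45.9, 40.8 and 44.5 CPM at 4 mg/L and 0, 0.345 and 0.48 CPM at 2 mg/L, 163-fold lower (adjusted p = 1.29e-12). An alpha-amylase (Mve02G006580) and a pancreatic lipase-related gene (Mve15G009130) had 0 counts at 2 mg/L, while a pancreatic triacylglycerol lipase (Mve18G004440) was 2.29-fold higher. Hemocyte markers were lower in 11 of 24 cases and higher in 7 (median -0.71), with sums of 4923 to 4998 CPM at 4 mg/L and 2322 to 2346 CPM at 2 mg/L. Most of that fall was a single gene: hemocyte transglutaminase (Mve06G014840), the enzyme that cross-links clots in arthropods, stood at 2876, 2843 and 2824 CPM at 4 mg/L and 522, 536 and 535 CPM at 2 mg/L. It was 5.36-fold lower (adjusted p = 4.04e-19), and without it the sums were 2079 to 2174 and 1786 to 1824 CPM. An astacin-like gene (Mve01G009020) was the marker with 0 counts at 2 mg/L. Gonad markers were higher in 11 of 49 and lower in 15 (median -0.07, sums of 1603 to 1649 and 1614 to 1644 CPM). A member described as vitelline membrane outer layer protein 1 (Mve18G004340) had 0 counts at 2 mg/L. The 14 genes sharing that description had sums of 720 to 743 CPM at 4 mg/L and 734 to 746 CPM at 2 mg/L. Whether the markers in this list are limited to gonad was not tested. Whether the cell make-up of the samples contributed to the other differences was not tested.

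**Figure D5:**
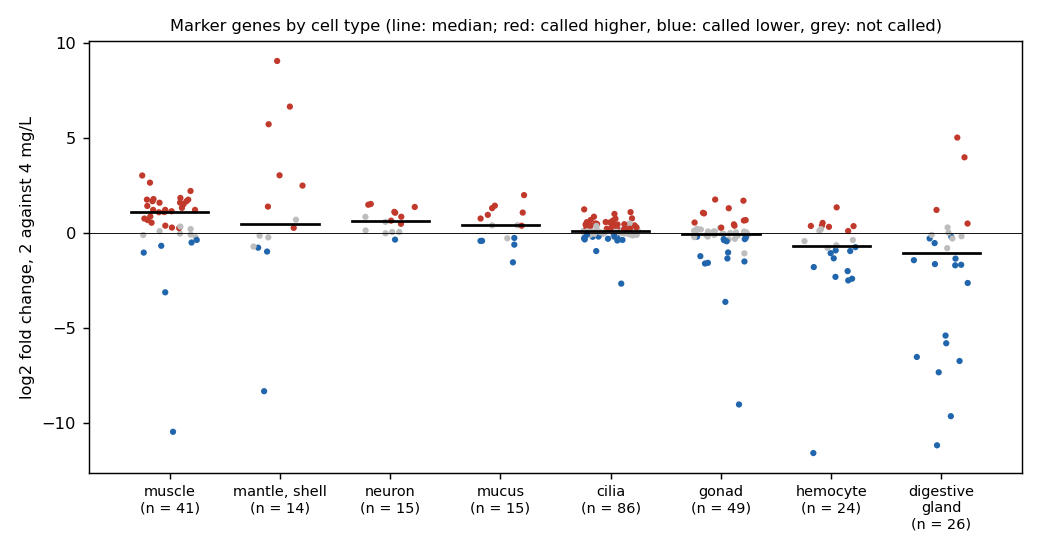
Log2 fold change at 2 against 4 mg/L of each marker gene, grouped by the cell type it was listed for, with a line at the list's median. Muscle markers centre at 1.07 and digestive gland markers at -1.09, while ciliary markers centre near 0 (0.08, and below 0 with total counts).

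Extracellular matrix and adhesion genes were balanced as a list but held large single differences. Of 121 genes 56 were higher and 44 lower (median 0.08), or 51 and 48 (median -0.05) with total counts. Collagen alpha-2(I) (Mve01G005090), a fibrillar collagen, stood at 1114, 1157 and 1250.4 CPM at 4 mg/L and 4507, 4566 and 4431 CPM at 2 mg/L. It was 3.83-fold higher (adjusted p = 9.55e-17), and short-chain collagen C4-like Mve04G000630 was 59.9-fold higher. The adhesion receptor subunit integrin beta-like protein A (Mve02G003930) was 1.78-fold higher. Outside the list, a pair of genes on chromosome 18 described as cartilage intermediate layer protein 2, a matrix protein, were lower. Mve18G006070 stood at 9964, 9866 and 9766 CPM at 4 mg/L and 961, 974 and 1014 CPM at 2 mg/L, the largest fall in CPM of any gene with an informative description, 10.04-fold lower (adjusted p = 8.71e-21), and Mve18G006060 was 6.16-fold lower. Within the list, the protease ADAMTS 18 (Mve15G005760), which cuts matrix, was 5.86-fold lower. Of 9 protocadherin Fat 4 genes, large cadherins of cell contact, 5 were lower and 3 higher (median -3.54). Their summed level nevertheless was higher at 2 mg/L, at 384 to 389 CPM at 4 mg/L and 537 to 545 CPM at 2 mg/L. Mve01G007760 stood at 39.7, 40.3 and 41.1 CPM at 4 mg/L and 1.19, 0.898 and 1.44 CPM at 2 mg/L. That gene was 34.4-fold lower.

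Vascular endothelial growth factor A (Mve09G007790), a HIF target and angiogenic ligand in vertebrates, stood at 1214, 1205 and 1157 CPM at 4 mg/L and 279, 283 and 318 CPM at 2 mg/L. It was 4.07-fold lower (log2 change -2.02 ± 0.05 SE, adjusted p = 1.78e-15), and 123 ± 4.45 CPM at 7.5 mg/L. A tubulin beta gene (Mve09G011930) stood at 1354, 1395 and 1458 CPM at 4 mg/L and 5.83, 7.57 and 9.03 CPM at 2 mg/L. The groups were 189-fold apart (adjusted p = 1.61e-18), while the most abundant tubulins were higher at 2 mg/L, alpha-1A (Mve08G009830) by 1.57-fold and beta (Mve07G014090) by 1.52-fold. A gene with sushi, von Willebrand and pentraxin domains (Mve02G010780), of adhesion proteins, was 9.43-fold lower. Dual oxidase 2-like (Mve10G007400), which makes peroxide at cell surfaces, was 1.46-fold higher, and a tripartite motif gene (TRIM2, Mve11G008840) stood at 1604, 1642 and 1688 CPM at 4 mg/L and 6363, 6335 and 6494 CPM at 2 mg/L, 3.89-fold higher.

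Developmental regulators appeared at both extremes, 35 of 88 higher and 29 lower, or 31 and 36 with total counts. The T-box factor TBX20 (Mve06G000940), a heart regulator in vertebrates, stood at 32.7, 34.0 and 34.9 CPM at 4 mg/L and 0 counts in the 3 libraries at 2 mg/L. Taking 3 counts over the 2 mg/L group as the floor, and counts as independent, the gene was at least 939.7-fold lower, and its neighbour Mve06G000910 was 89.6-fold lower (adjusted p = 2.72e-14). DMRT4 (Mve03G009340), from the doublesex-related transcription factors, stood at 179, 172 and 203 CPM at 4 mg/L and 0.648, 0.898 and 0.879 CPM at 2 mg/L. It was 228-fold lower (adjusted p = 5.60e-15) without overlap. LIM homeobox 1 (Mve11G007730) was 2.86-fold higher and Sox2 (Mve15G007220) 1.51-fold higher. At 7.5 mg/L TBX20 (Mve06G000940) and DMRT4 stood far below their 4 mg/L levels, at 0.356 ± 0.0813 CPM and 1.75 ± 0.947 CPM.

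Genes with the highest folds among those of at least 10 CPM came from many functions. Those higher included alkaline phosphatase (Mve10G011110), which stood at 0, 0 and 0.437 CPM at 4 mg/L and 36.3, 38.7 and 29.8 CPM at 2 mg/L, and a CD109-like gene (Mve09G012960), a thioester protein, at 0.463, 0.775 and 0.905 CPM at 4 mg/L and 142, 137 and 137 CPM at 2 mg/L. Folds were 235-fold and 193-fold. Saxiphilin-like (Mve07G007230), of a transferrin-related family in vertebrates, was 139.6-fold higher, serine protease inhibitor 2 (Mve13G009200) 121-fold higher, SCO-spondin-like (Mve09G003830) 158-fold higher and a gene described as P-U8 (Mve16G000910) 128-fold higher. Genes with 0 counts in the 3 libraries at 2 mg/L included a serine protease (Mve01G015020), a cytochrome P450 20A1-like gene (Mve10G005280), TRIM56-like (Mve15G011650), pannexin 2 (Mve19G002020), a channel protein, dachsous-like (Mve13G012770), a cadherin, kyphoscoliosis peptidase (Mve15G002110) and a sushi and pentraxin gene (Mve09G008460). Their bounds were at least 826-fold, at least 719-fold, at least 859.6-fold, at least 602-fold, at least 609.5-fold, at least 579-fold and at least 562-fold lower, in that order. A striated muscle calmodulin (Mve02G012080) stood at 25.4, 29.3 and 23.6 CPM at 4 mg/L and 0, 0 and 0.12 CPM at 2 mg/L.

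Among solute and acid-base transport genes, single members differed strongly in transcript level. A sodium bicarbonate cotransporter (Mve19G006690), which moves base across membranes, stood at 0.896, 0.744 and 1.59 CPM at 4 mg/L and 93.1, 104 and 89.0 CPM at 2 mg/L, and a SLC12A3-like salt cotransporter (Mve10G001610) at 0, 0.186 and 0.468 CPM at 4 mg/L and 41.5, 44.3 and 42.1 CPM at 2 mg/L. They were 88.4-fold higher and 192-fold higher (adjusted p = 1.47e-14 and adjusted p = 3.82e-11). Carbonic anhydrases, which interconvert carbon dioxide and bicarbonate, diverged: a GPI-anchored one (Mve11G016400) stood at 246, 229.8 and 226 CPM at 4 mg/L and 27.5, 24.8 and 25.1 CPM at 2 mg/L. This gene was 9.07-fold lower, whereas carbonic anhydrase II (Mve06G005770) was 2.49-fold higher and carbonic anhydrase 13-like (Mve13G003190) 1.9-fold higher. Of 43 osmolyte transport and synthesis genes 20 were higher and 11 lower (median 0.26). A proline transporter (Mve09G006210) stood at 1097, 1119 and 1128 CPM at 4 mg/L and 2117, 2039 and 1987 CPM at 2 mg/L, and cysteine dioxygenase (Mve06G007720), an enzyme on the way to taurine, at 107, 121 and 119.5 CPM at 4 mg/L and 422, 420.5 and 447 CPM at 2 mg/L. They were 1.84-fold higher and 3.71-fold higher, a betaine transporter (Mve06G010360) next to PEPCK was 4.88-fold higher, and a taurine transporter (Mve08G011310) stood at 9.17, 9.02 and 12.3 CPM at 4 mg/L and 0 counts in the 3 libraries at 2 mg/L.

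Monocarboxylate transporters, carriers of lactate, pyruvate and related acids, were lower in 17 of 37 cases and higher in 9 (median -0.29). Of 12 genes described as monocarboxylate transporter 12, 8 were lower and 1 higher (median -1.24). Sodium-coupled transporter Mve06G006720 stood at 47.4, 45.5 and 43.7 CPM at 4 mg/L and 0 counts in the 3 libraries at 2 mg/L, at least 1263-fold lower against the floor. A gene of the same description (Mve17G009100) stood at 90.9, 98.3 and 101 CPM at 4 mg/L and 210.2, 229 and 209.5 CPM at 2 mg/L, 2.23-fold higher (adjusted p = 1.13e-11).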

How the data were processed

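Poly(A) RNA of gill from 3 libraries at each of 7.5, 4 and 2 mg/L oxygen was sequenced. The deposited table holds whole-number counts per gene and, per the file headers, FPKM values. Per the submitters' processing notes, cutadapt 1.9, HISAT2 2.2.1 and StringTie 2.1.6 were used, with DESeq2 and edgeR also named. Their roles, the genome build, strandedness and the treatment of reads shared between copies are not given in the sources used here. FPKM served for the filter (mean of at least 1 over 9 libraries) and an alternative test.

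Counts were tested with edgeR 4.0.16 (R 4.3.3) by the quasi-likelihood F-test on all 9 libraries, scaled by TMM, with Benjamini-Hochberg adjustment over the 15397 genes and a call at an adjusted p under 0.05. Every adjusted p in the text is from this fit. The common biological coefficient of variation was 11.8%. On simulated data for this comparison of 15397 genes, 50% of 1.5-fold, 74% of 2-fold and 96% of 4-fold changes were called. In the same data 0.0658% of unchanged genes were called. Alternatives used total counts, median-of-ratios size factors, DESeq2 1.42.0, limma 3.58.1 on log2(FPKM + 1) or log2(FPKM + 0.1), no filter, an FPKM filter of 5, the 6 hypoxic libraries, a replicate block, and each library left out.

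Lists came from word patterns in the deposited gene descriptions, and KEGG and GO terms and shared descriptions from the same table. The members and lists were chosen with earlier results of these data known, and patterns were edited after reading the descriptions they matched. Named genes followed a rule, with exceptions stated in the text: the 12 highest and 12 lowest folds at 10 CPM or more with groups not overlapping, the 10 largest CPM differences a direction, up to 3 folds and 2 CPM differences a direction for each list at 5 CPM or more, and set genes such as HIF-1alpha. Bounds on folds against 0 used a floor of 3 counts over the group and cover counting error only. A fold against a group close to 0 CPM rests on few counts and is no precise size. Replicate numbers were not used to pair the libraries in the main fit. No sequences are shown, since the deposited table holds none.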

Additional observations from a re-analysis of the deposited data

How the results depend on the processing

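With no setting changed, 9813 genes were called. An FPKM filter of 5, which tests fewer genes, left 5923 calls, 2991 higher and 2932 lower, with 974 at least 2-fold higher and 774 at least 2-fold lower. With limma on log2(FPKM + 1), which changes the scaling, the scale and the test together, 1262 genes were at least 2-fold higher against 2145, and the cause was not tested. Without each library in turn, 9182 to 9758 genes were called, 4578 to 4848 higher and 4472 to 4910 lower, with 2092 to 2183 at least 2-fold higher and 1961 to 2019 at least 2-fold lower. Total counts moved the share of higher calls from 49.6% to 40.2%. DESeq2 called 9787 genes.

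The fit with the replicate number as a block called 9531 genes. Correlations of the deviations of same-numbered libraries were -0.0109, -0.00976 and -0.000226, and those of differently numbered libraries -0.00174 to 0.011. Deviations from a mean of 3 libraries cannot settle whether same-numbered libraries share more than a number. Of 179 genes named, none reversed where it had a value under the 18 alternatives, and at an FPKM filter of 5 only 149 had one. In data simulated at this depth, spread and number of libraries, but with only a small share of genes changed, 50% of 1.5-fold changes were called. That rate need not hold for the real comparison, where most genes were called.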

Other observations

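Genes described as acetylcholine receptor subunit beta, part of a ligand-gated channel, had the lowest median of the 61 descriptions shared by at least 8 genes. Of these 8 genes 5 were lower at 2 mg/L and 1 higher (median log2 change -4.50). Mve13G009920 stood at 54.7, 53.8 and 55.0 CPM at 4 mg/L and 0.136, 0 and 0 CPM at 2 mg/L, and Mve12G004600 at 55.0, 49.4 and 49.7 CPM at 4 mg/L and 0, 0 and 0.36 CPM at 2 mg/L. Of 9 alpha-10 subunits 5 were higher and 4 lower (median 0.79), among them Mve10G008680, which was 4.67-fold higher, and of 10 alpha-6 subunits 3 were higher and 6 lower (median -0.46). The wider list of 111 neurotransmitter receptors held 49 higher and 36 lower genes (median 0.22). Von Willebrand factor D and EGF domain genes were lower in 8 of 9 cases and higher in none (median -1.63). Descriptions with high medians included transposon-derived reverse transcriptase (7 higher and 2 lower of 9, median 1.86) and the transposase-related nuclease HARBI1 (10 higher and 2 lower of 20, median 1.05). Among 708 GO terms, oligosaccharide binding had the highest median (1.54; 17 of 26 higher, 4 lower) and mannosyl-inositol phosphorylceramide biosynthesis the lowest (-2.17; 13 of 15 lower, 2 higher). Terms share genes, and none of these groups was tested as a set.

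Some large differences were shared by neighbours. With neighbours taken among the genes tested, 77 adjacent pairs were called and at least 4-fold higher and 79 at least 4-fold lower, beside 13 higher and 22 lower runs of 3 genes and 5 higher and 2 lower runs of 4. Over all 15397 genes, 420 were called 4- to 10-fold higher and 354 lower. At 10-fold or more, 320 were higher and 534 lower. The number of runs that a random gene order would give was not worked out. The longest runs held 5 genes, both higher at 2 mg/L. One, on chromosome 9 from 491308 to 573274, held 4 HSP70 12A or 12B genes, and the other, on chromosome 13 from 31135895 to 31225550, ended in serine protease inhibitor 2. A run of 4 GIMAP genes lay on chromosome 4 between 9869294 and 10294763, all higher, and a further GIMAP gene beyond it (Mve04G003730, starting at 10423634) was 32.5-fold lower. Reads shared between copies were not tested. Of 854 genes that changed at least 10-fold, 43.1% had an informative description, against 63.4% of all genes tested.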
